A study of Rattus norvegicus with 120 samples.

Results

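Kidney gene expression after 28 daily doses of rapamycin (Rapa) at 10 mg/kg was set against that of rats given the olive oil vehicle for as long. The 11 rats were found by their sample labels: 6 rats labelled rapamycin 10 mg/kg and 5 labelled olive oil, each with 28 doses, of 120 rats in the series, with 1 array per rat. All were male Sprague-Dawley rats, 5 to 7 weeks old before treatment, dosed by intraperitoneal injection, and kidneys were collected 24 hours after the last dose. The RNA came from portions of whole kidney, so it mixes all cell types of the organ. The other rats of the series received the calcineurin inhibitors FK506 or CsA, Rapa at 1 mg/kg, or the same Rapa dose or vehicle for fewer days. Rats of Rapa 10 mg/kg and vehicle after 1, 7 and 14 doses (4 in each group) and 6 rats of Rapa 1 mg/kg after 28 doses served for the later comparisons. So did 5 rats of FK506 6 mg/kg and 4 rats of CsA 25 mg/kg after 28 doses. By the title of the series, the question was which transcripts mark kidney toxicity of the calcineurin inhibitors, and Rapa, which shares the binding protein of FK506, has another target.

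Rapamycin binds the immunophilin FKBP12 (gene Fkbp1a), and the complex inhibits mTOR complex 1, a kinase that couples nutrient and growth factor supply to protein synthesis. Complex 1 phosphorylates the S6 kinases and the 4E-BP repressors of translation, drives lipid and nucleotide synthesis, and holds back autophagy. Long exposure also disturbs mTOR complex 2, which phosphorylates Akt. The messenger RNAs of ribosomal proteins and of some translation factors begin with a run of pyrimidines, the 5′ terminal oligopyrimidine (TOP) motif, and their translation depends strongly on complex 1. In the kidney, the proximal tubule meets most of its energy need from fatty acid oxidation, makes glucose, and secretes organic anions and cations.

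Levels are given as log2(intensity + 16) after quantile normalization. Before that normalization an intensity of 0 is a level of 4, and the added 16 understates differences between dim genes. A gene was called when limma's adjusted p (Benjamini-Hochberg over 10662 genes) was under 0.05. The p-values set a change against the spread between rats within groups, estimated over all 28 groups of the series. The arrays carried a kidney profile. Among the Rapa rats, Lrp2 and Cubn, the endocytic receptors of the proximal tubule, lay at 13.03 to 13.31 and 11.68 to 12.30, against 13.08 to 13.36 and 11.93 to 12.16 in vehicle rats. Umod of the thick ascending limb lay at 13.63 to 13.98 in Rapa and 13.70 to 13.81 in vehicle rats, and Nphs1 of podocytes at 7.90 to 8.74 in Rapa and 8.01 to 8.69 in vehicle rats. The correlation between arrays ran from 0.970 to 0.981 within the Rapa group, from 0.978 to 0.983 within the vehicle group and from 0.963 to 0.974 across the groups. On the first principal component of the 11 arrays (26.91% of the variance) the Rapa rats lay between 9.11 and 16.25 and the vehicle rats between -18.82 and -12.51. The second component (12.84%) spread the Rapa rats from -18.86 to 18.37 and the vehicle rats from -4.65 to 1.51. The median intensity was 69.9 to 75.4 in Rapa and 71.6 to 78.8 in vehicle arrays, and the Gapdh control probe sets, whose 3′ over 5′ signal tracks RNA quality, gave a log2 ratio of 0.28 to 0.60 in Rapa and 0.34 to 0.47 in vehicle arrays. Rapa replicate 3 and vehicle replicate 3 stood apart in Alb, the liver's albumin gene, at 10.02 and 10.69, with the other rats of both groups at 4.91 to 7.03.

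Of the 10662 genes, 1678 were called (15.7% of those tested): 808 were higher in the Rapa rats (7.58%) and 870 lower (8.16%). Most differences were small. Only 65 called genes (0.61%) differed by more than 2-fold, 20 of them higher and 45 lower, and the median change of all genes was -0.01 on the log2 scale. For 918 genes (8.61%) every Rapa rat lay on one side of all vehicle rats, 435 of them higher (4.08%) and 483 lower (4.53%). Because the tissue is whole kidney, fewer cells of a type and less RNA per cell cannot be told apart in any of these changes.

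**Figure D1:**
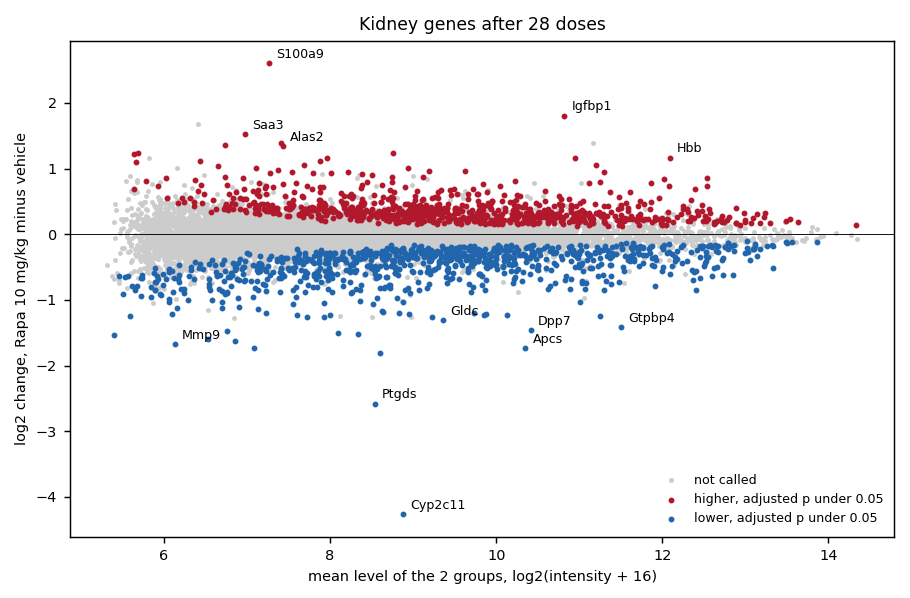
Each point is 1 of 10662 genes; the horizontal axis is the mean level of the groups as log2(intensity + 16) and the vertical axis the log2 change, Rapa 10 mg/kg minus vehicle, after 28 doses. The 808 genes called higher are red, the 870 called lower are blue; Cyp2c11 and Ptgds lie lowest and S100a9 highest.

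The largest rise was in S100a9, which encodes a calcium-binding protein of neutrophils and monocytes. Its level in Rapa rats was 7.01, 8.38 and 10.57 (lowest, median and highest of 6), against 6.11, 5.59, 6.20, 6.23 and 5.69 in the 5 vehicle rats. The groups did not overlap, and the Rapa rats differed widely among themselves (log2 change 2.60 ± 0.54 SE, limma's adjusted p = 0.000206). Its partner S100a8 was dimmer than the limit for testing, with 5.94, 7.04 and 8.89 in Rapa rats and 5.02, 4.26, 4.33, 5.57 and 5.44 in vehicle rats, again without overlap. Of 26 listed neutrophil genes, 18 were on the array and 6 passed the limit on dim genes. Of these 6, S100a9 rose and Mmp9 fell, beside 7.58% higher and 8.16% lower of all genes. The other 4 did not pass the test. The granule genes Camp and Np4 were near the lowest measurable level in both groups, with means of 4.47 and 4.76 in Rapa and 4.58 and 4.93 in vehicle rats. The summed level of the 6 tested neutrophil genes was 9.43 to 11.10 in Rapa and 8.93 to 9.87 in vehicle rats, and its part in the S100a9 result was not tested.

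Igfbp1, an insulin-like growth factor binding protein that insulin represses, came second. It lay at 10.74, 11.70 and 12.97 in Rapa rats, against 9.23, 9.30, 11.23, 9.84 and 9.98 in vehicle rats (log2 change 1.81 ± 0.47 SE, limma's adjusted p = 0.00334). One vehicle rat, replicate 3, was inside the Rapa range. Saa3, an acute phase serum amyloid protein, stood at 6.87, 7.93 and 8.19 in Rapa and 5.89, 6.96, 5.96, 6.10 and 6.15 in vehicle rats, with the highest vehicle rat just inside the Rapa range (log2 change 1.52 ± 0.24 SE, limma's adjusted p = 1.61e-06). The chemokine Ccl6 was at 8.84, 9.47 and 9.66 in Rapa and 8.59, 7.63, 8.18, 8.12 and 8.18 in vehicle rats, with no overlap (log2 change 1.24, limma's adjusted p = 1.84e-06). Ccdc127 had the tightest groups of these genes, 7.91, 8.08 and 8.34 in Rapa and 6.54, 6.66, 6.92, 6.92 and 6.50 in vehicle rats (log2 change 1.40, limma's adjusted p = 1.64e-08).

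Genes of red blood cells were also among the largest rises. Alas2, the erythroid first enzyme of haem synthesis, was at 7.43, 8.01 and 8.95 in Rapa and 6.41, 7.11, 6.80, 7.16 and 6.33 in vehicle rats (log2 change 1.34 ± 0.28 SE, limma's adjusted p = 0.000174). Hbb, a beta globin gene, was at 12.18, 12.74 and 13.06 in Rapa and 11.20, 11.77, 11.33, 11.74 and 11.48 in vehicle rats (log2 change 1.17 ± 0.25 SE, limma's adjusted p = 0.000338), measured by a probe set of a class that can also bind related globins. Neither gene overlapped between the groups. Of 19 listed erythroid genes, 12 were on the array and 4 passed the limit. Of these 4, 3 rose and 0 fell, beside 7.58% and 8.16% of all genes, with a median change of 0.78. The third was the membrane protein Gypc (log2 change 0.38), and the anion exchanger Slc4a1, which the kidney also makes, was not called. With the filter on dim genes dropped, 2 of the 12 rose and 0 fell, with a median change of 0.05. The summed level of the 4 tested genes was 12.44 to 13.27 in Rapa and 11.71 to 12.13 in vehicle rats. The precursor genes Ahsp, Gata1 and Klf1 averaged 4.96, 5.24 and 4.67 in Rapa rats and 4.97, 5.35 and 4.65 in vehicle rats, below the limit, and the part of blood in the kidneys in the rises of Hbb and Alas2 was not tested.

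The remaining large rises belong to varied functions. Sult1a1, a phenol sulfotransferase, lay at 10.94 to 12.19 in Rapa and 10.07 to 10.73 in vehicle rats (log2 change 1.17). Scara5, a ferritin receptor, lay at 5.70 to 7.29 in Rapa and 4.24 to 5.63 in vehicle rats (log2 change 1.23), and Wfdc10a at 7.02 to 8.17 in Rapa and 5.48 to 6.96 in vehicle rats (log2 change 1.36). These 3 did not overlap between the groups. Cyp26b1, which degrades retinoic acid (log2 change 1.16), the proteoglycan Vcan (1.22), the mucosal scavenger receptor Dmbt1 (1.12), the mesothelial surface protein Msln (1.10) and Cdk5rap3 (1.12) rose with overlapping groups. None of the 4 other, dimmer probe sets of Vcan was called (log2 changes -0.10 to 0.39). Limma's adjusted p of Cdk5rap3 was 0.0163 and rose above 0.05 without vehicle replicate 2, without vehicle replicate 4, without the pair of rats with much Alb and with the spread taken from these 11 rats alone. In all, 8 of the 15 largest rises and 13 of the 15 largest falls had no overlap, and choosing large changes makes that likely.

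**Figure D2:**
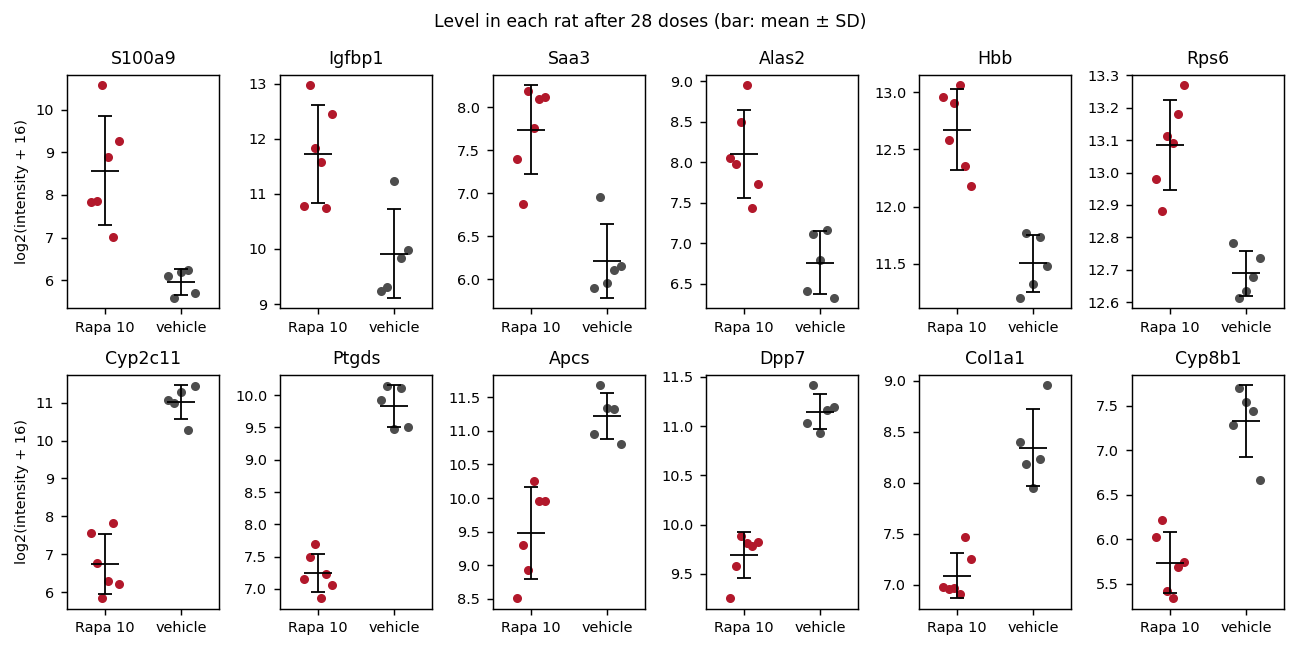
Each panel is 1 gene, each point 1 rat, with Rapa 10 mg/kg in red on the left and vehicle in grey on the right after 28 doses; the vertical axis is log2(intensity + 16), the long bar the mean and the whiskers the SD. The rows hold genes that were higher (top) and lower (bottom) in Rapa rats, and only Igfbp1 and Saa3 overlap.

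More falls than rises passed 2-fold, and the largest of all was a fall. Cyp2c11, the male-specific steroid hydroxylase of rat liver, fell to 5.84, 6.53 and 7.82 (lowest, median and highest) in Rapa rats, against 11.07, 10.99, 11.27, 10.27 and 11.43 in vehicle rats, a 19.2-fold difference (log2 change -4.26 ± 0.73 SE, limma's adjusted p = 7.11e-06). The highest Rapa rat was far below the lowest vehicle rat. Of 28 listed liver genes, 25 were on the array and 15 passed the limit. Of these 15, 3 fell and 0 rose, beside 8.16% and 7.58% of all genes. Their summed level was 13.77 to 14.14 in Rapa and 13.89 to 14.21 in vehicle rats. In the 2 rats with much Alb, Cyp2c11 was at 5.84 (Rapa replicate 3) and 11.27 (vehicle replicate 3), and its change without them was -4.01. Of 16 tested sex- or androgen-dependent kidney genes, 3 fell and 2 rose, beside 8.16% and 7.58% of all genes. The falls were Cyp2c11, the prolactin receptor Prlr at -1.25 and Cyp2e1 at -0.69. Neither of the 2 other probe sets of Prlr was called (-0.63 and -0.36). The rises were the polyamine enzyme Odc1 at 0.86 and the amino acid transporter Slc7a12 at 0.74.

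Ptgds, the lipocalin-type prostaglandin D synthase, was at 6.86, 7.20 and 7.69 in Rapa and 9.92, 10.14, 9.48, 10.10 and 9.50 in vehicle rats (log2 change -2.58 ± 0.27 SE, limma's adjusted p = 7.99e-12). Dpp7, a dipeptidase of lysosomes and vesicles, was at 9.25, 9.80 and 9.89 in Rapa and 11.03, 11.41, 10.93, 11.16 and 11.20 in vehicle rats (log2 change -1.46 ± 0.15 SE, limma's adjusted p = 1.90e-12). Both genes were well above the dim range and their groups were far apart. Apcs, the pentraxin serum amyloid P, was at 8.51, 9.63 and 10.25 in Rapa and 10.95, 11.68, 11.34, 11.32 and 10.80 in vehicle rats (log2 change -1.74 ± 0.22 SE, limma's adjusted p = 5.52e-09). Within the acute phase list Apcs thus fell while Cp, Lrg1 and Cd14 rose by 0.64, 0.48 and 0.45, beside 8.16% lower and 7.58% higher of all genes. The other 10 of the 14 tested members were not called. Saa3 is not in that list.

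Several of the other large falls are enzymes and receptors of metabolism. The carboxylesterase Ces1e lay at 6.36 to 8.96 in Rapa and 8.96 to 10.29 in vehicle rats (log2 change -1.81), and the groups met at that level. Gcgr, the glucagon receptor, lay at 4.83 to 6.83 in Rapa and 7.48 to 7.89 in vehicle rats (log2 change -1.63), and Cyp8b1, a sterol hydroxylase of bile acid synthesis, at 5.34 to 6.22 in Rapa and 6.66 to 7.70 in vehicle rats (log2 change -1.59). Gldc, the decarboxylase of the glycine cleavage system, lay at 8.41 to 9.22 in Rapa and 9.65 to 10.32 in vehicle rats (log2 change -1.31), and Stra6, the receptor for retinol-binding protein, at 6.22 to 7.67 in Rapa and 8.06 to 8.83 in vehicle rats (log2 change -1.27). All of these fell without overlap except Ces1e. The remaining falls were in the neurofilament gene Nefm (-1.73), the gelatinase Mmp9 (-1.67), tetranectin Clec3b (-1.54), the phosphatase Dusp15 (-1.51), the mitotic kinase Melk (-1.51) and the nucleolar GTPase Gtpbp4 (-1.42), and Mmp9 alone of these overlapped.

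Most ribosomal protein genes that could be tested rose by a small amount. Of 76 listed, 42 were on the array and 39 passed the limit; 33 rose and 0 fell, beside 7.58% and 8.16% of all genes, with a median change of 0.23 and a range of -0.06 to 0.52. All but 1 of the 39 had a positive change, and with the spread estimated from these 11 rats alone, 21 rose. Rps15a of the small subunit had the largest, at 12.52, 12.62 and 12.70 in Rapa and 12.17, 11.99, 12.01, 12.15 and 12.14 in vehicle rats (log2 change 0.52 ± 0.08 SE, limma's adjusted p = 1.77e-07). Rps6, the substrate of the S6 kinases that gives them their name, was at 12.88, 13.10 and 13.27 in Rapa and 12.78, 12.61, 12.64, 12.68 and 12.74 in vehicle rats (log2 change 0.40 ± 0.05 SE, limma's adjusted p = 1.35e-08). Neither gene overlapped, and 24 of the 39 had no overlap (4.08% of all genes were higher without overlap). In the large subunit Rpl4, Rpl12, Rpl13a and Rpl6 rose by 0.38, 0.38, 0.35 and 0.33. Arrays measure the amount of RNA, not its translation, and many ribosomal protein genes have near-identical processed copies that a probe set could also bind.

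The start of the 6 genes with the largest ribosomal rises is shown because a TOP motif would begin there. The windows hold 15 bases before and 15 from the RefSeq start (GRCr8), 5′ to 3′ on the gene's strand, with the longest run of C or T in capitals.
Rps15a, chr1:181860270-181860299, minus strand: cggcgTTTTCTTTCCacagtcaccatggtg
Rps6, chr5:106420526-106420555, minus strand: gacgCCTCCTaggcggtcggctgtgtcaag
Rpl4, chr8:73566462-73566491, plus strand: taagTTCTTCCTTTTCCTgtgggagcagcc
Rpl12, chr3:36661925-36661954, plus strand: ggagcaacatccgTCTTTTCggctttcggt
Rpl13a, chr1:104748899-104748928, minus strand: CCTCTTCCTTTCCTaggcggctgccgaaga
Rpl6, chr12:41011676-41011705, minus strand: taTTTTTacatcactagatggcgggtgaaa
The longest run was 10 bases in Rps15a, 6 in Rps6, 14 in Rpl4 and Rpl13a, 7 in Rpl12 and 5 in Rpl6. The runs of Rpl4 and Rpl12 cross the annotated start. Those of Rps15a, Rps6, Rpl13a and Rpl6 lie wholly before it, outside the annotated RNA. Runs of at least 7 pyrimidines on this strand were counted anywhere in the window, before or after the start. The length was chosen after the windows were seen. Such a run was in 26 of 35 ribosomal protein windows (74.3%) and in 17.9% of all 33469 windows. Translation factors had it in 11 of 25 windows (44.0%), the respiratory chain in 11 of 44 (25.0%) and cell cycle genes in 5 of 28 (17.9%). The annotated start can be off by some bases, so a missing run says only that these letters are not in the window. Likewise, a run in the window is not shown to be a TOP motif.

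Of 27 translation factors 13 rose and 0 fell, beside 7.58% and 8.16% of all genes, with a median change of 0.13, and 7 rose with the spread estimated from these 11 rats alone. Subunits of the elongation complex eEF1 were among them, with Eef1g at 11.79 to 12.10 in Rapa and 11.35 to 11.61 in vehicle rats (log2 change 0.43 ± 0.08 SE, limma's adjusted p = 1.09e-05), and Eef1d and Eef1b2 up by 0.34 and 0.34. Of the initiation complex eIF3, Eif3h, Eif3m and Eif3f rose by 0.40, 0.40 and 0.34. None of these 6 overlapped between the groups. In ribosome biogenesis 2 of 38 genes rose (Pes1 by 0.31 and the nucleolar protein Ncl by 0.28) and 0 fell, which is below the share of all genes called higher, and Gtpbp4, which fell, is not in that list.

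**Figure D3:**
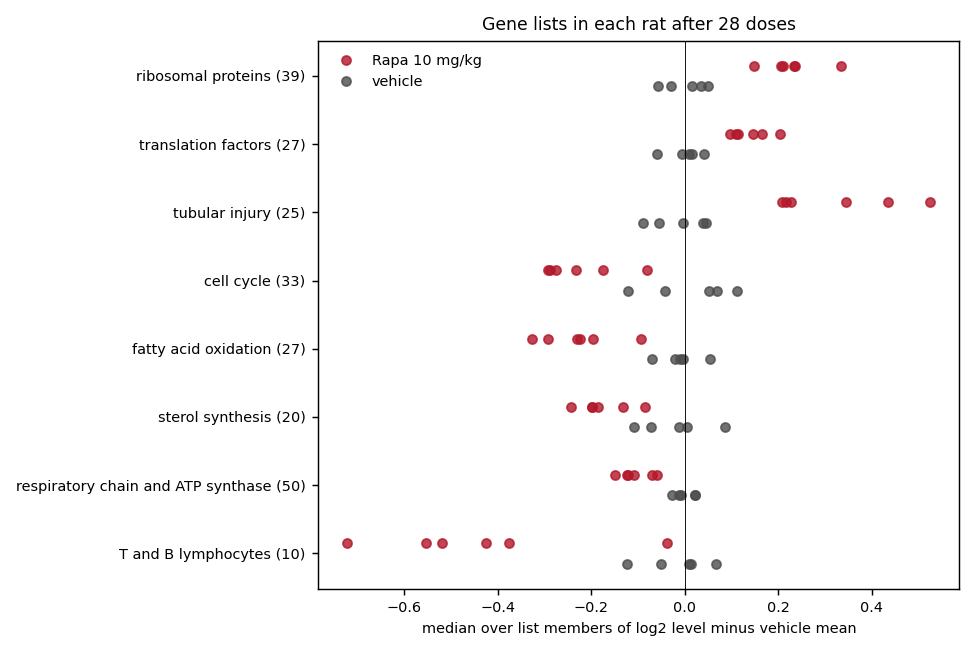
Each point is 1 rat after 28 doses, Rapa 10 mg/kg in red above vehicle in grey; the horizontal axis is the median over the members of a list of each gene's log2 level minus its vehicle mean, with the number of genes in brackets. The Rapa rats lie at 0.15 to 0.33 for ribosomal proteins and at -0.33 to -0.09 for fatty acid oxidation, and the vehicle rats lie near 0 because they set the zero.

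Most genes of the mTOR pathway itself did not pass the test. Mtor was at 8.61 to 9.01 in Rapa and 8.63 to 9.01 in vehicle rats (log2 change 0.09, limma's adjusted p = 0.382). The changes of Rptor, the scaffold of complex 1, of the S6 kinase Rps6kb1 and of the translation repressor Eif4ebp1 were -0.11, 0.06 and -0.01, and that of Fkbp1a, which encodes FKBP12, was -0.04. The inhibitor Deptor had 0.20 (limma's adjusted p = 0.0679) and Ddit4, a stress-induced inhibitor, 0.55 (limma's adjusted p = 0.311), and none of these 7 passed the test. Of 30 tested genes of the complexes and their regulators, 4 fell and 1 rose, beside 8.16% and 7.58% of all genes. Prr5, a partner of mTOR complex 2, lay at 7.85 to 8.18 in Rapa and 8.64 to 8.95 in vehicle rats (log2 change -0.77 ± 0.11 SE, limma's adjusted p = 5.18e-08), without overlap. Lamtor5 and Lamtor4 of the lysosomal Ragulator scaffold fell by 0.49 and 0.21, folliculin Flcn fell by 0.28, and Sesn2, an amino acid sensor that restrains complex 1, rose by 0.49.

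Among 26 targets and upstream insulin signalling genes, 4 rose and 1 fell, beside 7.58% and 8.16% of all genes. The initiation factor Eif4b rose by 0.41, the receptor Igf1r by 0.32 and the kinase Akt1 by 0.27, beside Rps6. Igf1r lost its call under 11 of 23 alternatives and Akt1 under 5, and none of their other probe sets was called (log2 change 0.08 for that of Igf1r, -0.29 and 0.05 for those of Akt1). Grb10, an adaptor that dampens insulin signalling, fell by 0.51 (limma's adjusted p = 3.82e-05), with no Rapa rat above 8.39 and no vehicle rat below 8.59, while neither of its other, dimmer probe sets was called (-0.12 and -0.04). Of 17 immunophilins, Fkbp9 rose by 0.30 and Fkbp1b and Fkbp8 fell by 0.38 and 0.26, beside 7.58% higher and 8.16% lower of all genes. Fkbp1b lost its call under 13 of 22 alternatives and Fkbp8 under 8 of 23. In the growth hormone and IGF list 3 of 18 rose and 3 fell, beside 7.58% and 8.16% of all genes. The rises were Igfbp1, Igfbp3 (by 0.65) and Igf1r. The falls were Prlr, the acid-labile subunit Igfals (by 0.88) and Igfbp7 (by 0.12), and Igf1 itself was not called at -0.21.

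Of 27 tested genes of fatty acid oxidation 14 fell and 1 rose, beside 8.16% and 7.58% of all genes, with a median change of -0.29, and 25 of the 27 had a negative change. With the spread estimated from these 11 rats alone, 9 fell. Cyp4a1, an omega-hydroxylase, was at 10.54, 11.05 and 11.37 in Rapa and 11.62, 11.98, 11.64, 11.92 and 11.69 in vehicle rats (log2 change -0.76 ± 0.16 SE, limma's adjusted p = 0.000241). Ehhadh, the peroxisomal bifunctional enzyme, was at 10.89, 10.93 and 11.10 in Rapa and 11.47, 11.89, 11.75, 11.60 and 11.69 in vehicle rats (log2 change -0.71 ± 0.15 SE, limma's adjusted p = 0.000304). The groups did not overlap for either, nor for the isomerase Eci1 (log2 change -0.57) or the thioesterase Acot2 (-0.48). Acot1 fell by 0.51 with overlap, and the exception was the fatty acid transporter Cd36, which rose by 0.57.

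Subunits of the respiratory chain and ATP synthase showed smaller falls. Of 50, 16 fell and 1 rose, beside 8.16% and 7.58% of all genes, with a median change of -0.10. Ndufb6 of complex I lay at 11.10 to 11.39 in Rapa and 11.50 to 11.63 in vehicle rats (log2 change -0.33 ± 0.05 SE, limma's adjusted p = 3.03e-06). Ndufs8, Ndufs3 and Ndufs1 of the same complex fell by 0.26, 0.25 and 0.24, and Cox6a1 and Cox5b of cytochrome oxidase by 0.26 and 0.20, none of them with overlap. With the spread estimated from these 11 rats alone, 6 of the 50 fell.

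The list for gluconeogenesis also holds glucose transporters. Of its 12 tested genes 4 fell and 0 rose, beside 8.16% and 7.58% of all genes. They were pyruvate carboxylase Pc (log2 change -0.75), the glucose transporter Slc2a2 (-0.53), glutamate dehydrogenase Glud1 (-0.34) and the sodium-glucose cotransporter Slc5a1. The last lay at 5.89 to 6.49 in Rapa and 6.92 to 7.28 in vehicle rats (limma's adjusted p = 3.35e-05). Pck1, the gene of the pathway's regulated step, was at 13.65 to 13.77 in Rapa and 13.70 to 13.84 in vehicle rats and was not called. Of 13 glycolysis genes, 4 fell (Pfkl by 0.60, Gpi by 0.40, Eno1 by 0.29 and Pgam1 by 0.17) and the transporter Slc2a1 rose by 0.30. In sterol synthesis 6 of 20 fell and 0 rose, beside 8.16% and 7.58% of all genes, with a median of -0.17. The isomerase Idi1 fell by 0.90, Dhcr7, the last step to cholesterol, by 0.87 and squalene epoxidase Sqle by 0.72. Hsd17b7, Stard4 and Tm7sf2 fell by 0.50, 0.49 and 0.45. Of 19 genes of fatty acid and triglyceride synthesis, malic enzyme Me1 fell by 1.23 (limma's adjusted p = 2.66e-09), the desaturase Fads1 fell by 0.76 and Scd2 rose by 0.65.

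Of 24 organic ion transporters 7 fell and 0 rose, beside 8.16% and 7.58% of all genes. The others were not called, and the median of the list was -0.29. The carnitine transporter Slc22a5 was at 10.57, 10.89 and 11.11 in Rapa and 11.75, 11.71, 11.71, 11.57 and 11.82 in vehicle rats (log2 change -0.84 ± 0.12 SE, limma's adjusted p = 4.02e-08), without overlap. Slc51a, a subunit of the steroid and bile acid exporter, was at 7.64, 8.22 and 8.86 in Rapa and 9.34, 9.88, 9.39, 9.37 and 9.17 in vehicle rats (log2 change -1.20 ± 0.30 SE, limma's adjusted p = 0.00199), also without overlap. Slc22a13, Abcb1a, Slc22a18 and the organic anion transporter Slc22a6 fell by 1.47, 0.71, 0.51 and 0.43, and Slc22a13 ranged over 4.38 to 7.94 among Rapa rats.

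Of 24 proximal tubule markers 9 fell and 1 rose, beside 8.16% and 7.58% of all genes, with a median of -0.10. Without vehicle replicate 2, and without the 2 rats with much Alb, 5 fell. The brush border peptidase Anpep fell by 0.64, the creatine enzyme Gatm by 0.62 and the scaffold Pdzk1 by 0.38, while the sulfate transporter Slc13a1 rose by 0.78. The summed level of the list was 17.13 to 17.25 in Rapa and 17.28 to 17.37 in vehicle rats, and Lrp2 and Cubn were not called at -0.09 and -0.07. Other segments showed few calls, to be read beside the same shares of all genes. By limma, 0 of 15 podocyte genes were called (1 lower and 0 higher at an unadjusted p under 0.05) and 0 of 14 thick ascending limb genes (2 and 2 at that limit). In the distal convoluted tubule S100g, the vitamin D dependent calbindin D9k, rose by 0.93 (limma's adjusted p = 2.00e-06), Hsd11b2 rose by 0.64 and Fxyd2 fell by 0.26 of 17 genes, while Calb1 and Slc12a3 were not called at 0.02 and -0.14. Of 17 principal cell genes 2 rose, Hsd11b2 and the sodium channel subunit Scnn1g (0.65), and of 12 intercalated cell genes 2 fell, pendrin Slc26a4 (-0.75) and Kit (-0.67). Among 22 genes of vitamin D, calcium and phosphate handling S100g was the 1 call.

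Matrix genes moved both ways. Of 35 tested, 5 fell and 5 rose, beside 8.16% and 7.58% of all genes, with a median of -0.06. The fibrillar collagen Col1a1 was at 6.91, 6.97 and 7.47 in Rapa and 8.40, 8.18, 7.95, 8.23 and 8.95 in vehicle rats, without overlap (log2 change -1.26 ± 0.25 SE, limma's adjusted p = 0.000133), and Col3a1 was at 8.70, 9.17 and 9.99 in Rapa and 10.41, 9.84, 9.96, 10.22 and 10.20 in vehicle rats (log2 change -0.80 ± 0.21 SE, limma's adjusted p = 0.00294). The highest Rapa rats overlapped with the vehicle rats for Col3a1. Dcn, the small proteoglycan decorin, was at 11.44 to 12.15 in Rapa and 10.47 to 11.00 in vehicle rats (log2 change 0.96, limma's adjusted p = 6.32e-05), and Ccn2, a connective tissue growth factor, rose by 1.05. Without Rapa replicate 5, 8 matrix genes fell. Of 15 smooth muscle, pericyte and renin cell genes, Tagln rose by 0.90 and Mylk by 0.27, and Acta2 fell by 0.65. Of 21 endothelial genes 4 rose and 0 fell, with Edn1, Plat, Emcn and Kdr up by 0.47, 0.39, 0.31 and 0.28.

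Among the markers of tubular injury, Havcr1, Lcn2, Clu and Timp1 were higher on average without passing the test. Havcr1 (Kim-1) was at 6.04, 6.71 and 8.29 in Rapa and 6.03, 5.22, 5.93, 6.15 and 6.84 in vehicle rats (log2 change 0.91 ± 0.47 SE, limma's adjusted p = 0.191). Lcn2 was at 7.02, 7.42 and 9.32 in Rapa and 6.76, 6.83, 7.43, 7.49 and 6.42 in vehicle rats (log2 change 0.64 ± 0.45 SE, limma's adjusted p = 0.364), its highest value being that of 1 Rapa rat. The groups overlapped for both, and Clu (0.55) and Timp1 (0.49, limma's adjusted p = 0.0642) were not called either. Of 25 tested injury genes 6 rose and 2 fell, beside 7.58% and 8.16% of all genes, with a median of 0.47. In this list 20 genes had a positive change. The list's median log2 level minus vehicle mean was 0.21 to 0.52 among Rapa rats. It was -0.09 to 0.05 among vehicle rats, which set the zero. Spp1, osteopontin, rose by 0.84 (limma's adjusted p = 0.0296), with overlap, and the call was lost without vehicle replicate 2 and without Rapa replicate 2, 5 or 6. Lgals3, S100a6 and Cldn4 rose by 0.69, 0.67 and 0.65, and Gdf15 and the trefoil peptide Tff3 fell by 0.75 and 0.51. Egf, made by the distal nephron, lay at 12.61 to 13.39 in Rapa and 13.13 to 13.23 in vehicle rats and was not called (log2 change -0.24, limma's adjusted p = 0.0801).

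Of 33 tested cell cycle genes, 9 fell and 3 rose, beside 8.16% and 7.58% of all genes. The others were not called, and the median of the list was -0.28. Prc1, a spindle midzone protein, was at 4.66, 5.54 and 6.11 in Rapa and 6.92, 6.45, 6.59, 7.11 and 6.47 in vehicle rats (log2 change -1.22 ± 0.22 SE, limma's adjusted p = 2.49e-05), and the kinase subunit Cks2 at 6.07 to 6.87 in Rapa and 7.38 to 7.90 in vehicle rats (log2 change -0.96). Both were without overlap, and Top2a, Cdkn3, Ube2c and Ccnb2 fell by 0.94, 0.91, 0.84 and 0.73 with overlap. Mki67 passed the test narrowly (log2 change -0.63, limma's adjusted p = 0.0493) and lost its call under 14 of 22 alternatives. The 3 rises, named after their values were seen, were Pcna (0.23), Mcm4 (0.43) and Mcm7 (0.50), which act in DNA replication rather than in mitosis. Under a stricter limit on dim genes 9 of the list remained, of which 1 fell and 2 rose, and their median was positive at 0.09. Without vehicle replicate 4, 5 of the 33 fell. Without vehicle replicate 1 or 2, 1 of the 33 rose.

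Immune cell lists differed in how many genes could be tested and in how many were called. Of 36 listed T and B lymphocyte genes 25 were on the array and 10 were tested, the others being too dim. Among the 10, 4 fell and 0 rose, beside 8.16% and 7.58% of all genes, with a median of -0.48. Their summed level was 9.35 to 10.65 in Rapa and 9.81 to 10.39 in vehicle rats. Jchain, of antibody-secreting cells, was at 4.80 to 6.21 in Rapa and 6.48 to 7.24 in vehicle rats (log2 change -1.12 ± 0.28 SE, limma's adjusted p = 0.00202), and Cd3g, Ccl5 and Lck of T cells fell by 0.80, 0.66 and 0.45. The other, dimmer probe set of Jchain was not called (log2 change -0.09). The defining T and B cell genes Cd3e, Cd8a and Ms4a1 averaged 5.34, 5.12 and 4.88 in Rapa and 5.52, 4.94 and 5.42 in vehicle rats, below the limit. Without Rapa replicate 5, 2 of the 10 fell. Of 19 macrophage and myeloid genes Lgals3 rose and the receptor Csf1r fell by 0.42. Of 28 interferon response genes Irf7 fell by 0.84, and by limma 0 of 10 genes of MHC class II and antigen presentation were called, with 0 at an unadjusted p under 0.05.

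Lysosomal enzymes were split. Of 35 genes of lysosomes and autophagy 9 fell and 6 rose, beside 8.16% and 7.58% of all genes, with a median of -0.05. Glb1, beta-galactosidase, was at 10.51, 10.69 and 10.84 in Rapa and 11.29, 11.41, 11.42, 11.43 and 11.40 in vehicle rats (log2 change -0.72 ± 0.08 SE, limma's adjusted p = 1.28e-10), and Ctsa, the protective protein that binds it, at 12.21 to 12.71 in Rapa and 13.05 to 13.26 in vehicle rats (log2 change -0.61 ± 0.08 SE, limma's adjusted p = 7.17e-09). Hexa and Ctsh fell by 0.48 and 0.32, and these 4 had no overlap. The autophagosome protein Gabarapl1 and the protease Ctsd rose by 0.46 and 0.38.

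Stress pathway lists differed in the share and sign of their calls, beside 8.16% lower and 7.58% higher of all genes. Of 22 ATF4 and amino acid stress genes 6 fell and 2 rose; the serine synthesis enzymes Phgdh and Psph fell by 0.53 and 0.62, and Vldlr, Slc7a5 and Shmt2 by 0.64, 0.55 and 0.32, beside Gdf15. Of 23 NRF2 target genes 6 fell, among them Gsr by 0.49 and Sod2 by 0.34, and 1 rose. In that list 19 genes had a negative change, and the median was -0.14. Of 24 genes of the unfolded protein response Sdf2l1 and Calr fell by 0.47 and 0.36, and Xbp1 and Canx rose by 0.37 and 0.26. Neither of the 2 other probe sets of Canx was called (log2 changes -0.14 and -0.01), the brighter averaging 11.54. Of 20 immediate early genes 4 rose (Ccn2, Myc by 0.75, Ier3 by 0.61 and Klf2 by 0.55), of 18 HIF target genes 3 rose (Edn1, Slc2a1 and Bnip3l), of 15 p53 target genes 2 rose (Sesn2, and Gadd45b by 0.76), and of 17 clock genes Hlf fell by 0.85. None of the 4 other probe sets of Klf2 was called (log2 changes 0.05 to 0.35). Vegfa and Ccnd1 were not called at -0.03 and 0.28. Among markers of neighbouring tissues, Cidec and Gpd1 fell and Pnpla2 rose of 13 adipose genes, which kidney cells also express in part, Cela1 was the 1 call of 2 pancreas genes and Kit that of 2 mast cell genes, and by limma 0 of 2 adrenal and 0 of 3 muscle genes were called, with 0 at an unadjusted p under 0.05.

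**Figure D4:**
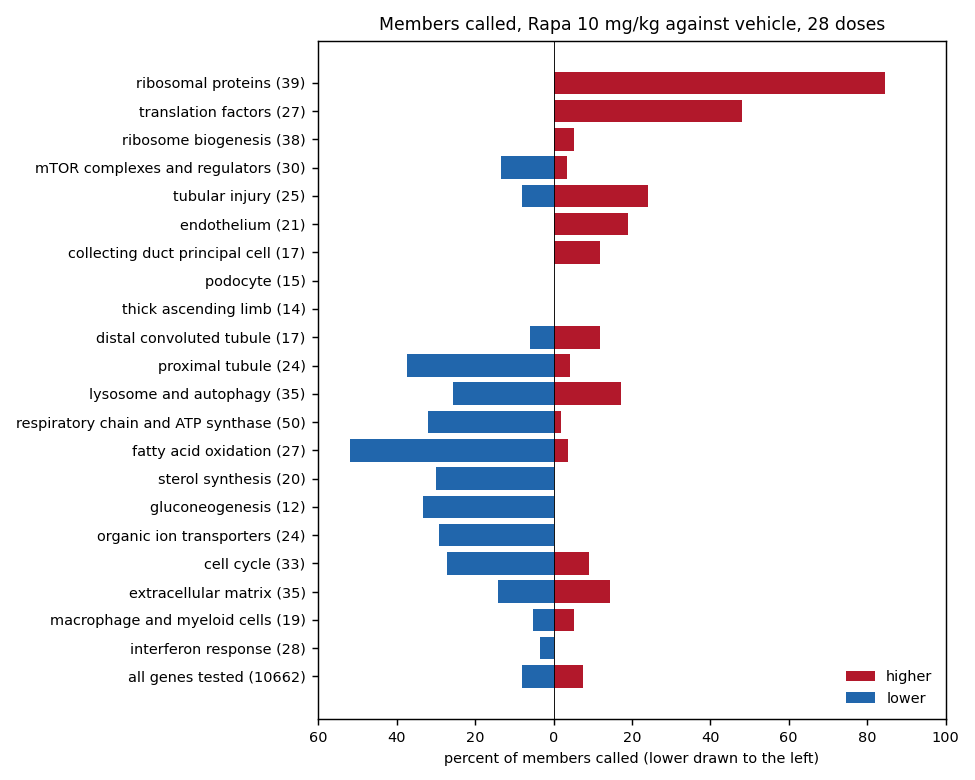
Bars give the percent of each list's tested genes called higher (red, to the right) and lower (blue, to the left) in Rapa 10 mg/kg against vehicle rats after 28 doses, with the number of tested genes in brackets. Ribosomal proteins (33 of 39 higher) and fatty acid oxidation (14 of 27 lower) reach furthest, and the bottom bar gives all genes, 7.58% higher and 8.16% lower.

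The lower dose of Rapa, 1 mg/kg, was given to 6 rats for as long, and the doses were compared directly, without the vehicle rats. By limma 13 genes differed (0.122%), 4 higher (0.0375%) and 9 lower (0.0844%) at 10 mg/kg, and 902 at an unadjusted p under 0.05. The hybridization controls lay at 10.16 to 10.66 in the 10 mg/kg arrays and 7.78 to 10.63 in the 1 mg/kg arrays, and with their level as a covariate 0 genes were called (681 at an unadjusted p under 0.05). Dhcr7 averaged 9.26 ± 0.26 at 10 mg/kg and 10.12 ± 0.53 at 1 mg/kg (SD, n = 6 each; log2 difference -0.87 ± 0.18 SE, limma's adjusted p = 0.0346). Kit averaged 5.39 ± 0.46 at 10 mg/kg and 6.24 ± 0.06 at 1 mg/kg (log2 difference -0.85 ± 0.19 SE, limma's adjusted p = 0.0442). The sialic acid transporter Slc17a5 and Hcfc1r1 were lower by 0.38 and 0.37, and Prepl, Tdrd7 and the RNA-binding protein Pum2 were higher by 0.39, 0.32 and 0.25. These calls were fragile: each was lost under 9 to 16 of the 22 or 23 alternatives. Nefm had the largest difference (-1.05) but its Rapa 10 mg/kg rats lay on both sides of the 1 mg/kg mean.

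Against the same vehicle rats, the doses can only be set side by side, since both changes share those rats. At 1 mg/kg 1050 genes were called (9.85%), 507 higher (4.76%) and 543 lower (5.09%). The change of Cyp2c11 was -4.26 at 10 mg/kg and -2.95 at 1 mg/kg, that of Ptgds -2.58 and -2.75, that of Dpp7 -1.46 and -1.44, that of S100a9 2.60 and 2.16, and that of Igfbp1 1.81 and 1.52. Ribosomal proteins had 33 and 26 of 39 genes higher, and fatty acid oxidation had 14 and 14 of 27 lower. Cell cycle genes had 9 and 5 of 33 lower and sterol synthesis 6 and 2 of 20.

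Time on the drug was tested as the difference between the effect at 28 doses and that at 7 or 14 doses, each measured against vehicle rats of the same day. Between 28 and 7 doses 186 genes differed (1.74%), 82 with a higher change at 28 doses (0.769%) and 104 with a lower one (0.975%). In a fit to these 4 groups alone 8 genes differed, 1 with a higher and 7 with a lower change. The Gapdh 3′ over 5′ ratio separated Rapa from vehicle arrays after 7 doses, and with it as a covariate 158 genes differed. The erythroid genes were among the highest. Alas2 averaged 6.72 ± 0.99 in Rapa and 7.38 ± 0.35 in vehicle rats after 7 doses (SD, n = 4 each) and 8.10 ± 0.54 in Rapa and 6.76 ± 0.39 in vehicle rats after 28 doses (n = 6 and 5), a difference between the changes of 2.00 ± 0.42 SE (limma's adjusted p = 0.00589). For Hbb the difference was 1.74 ± 0.39 SE (limma's adjusted p = 0.00760). Cdk5rap3 and Fblim1, an adaptor of cell adhesions, had 2.25 and 1.45.

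Slc51a went the other way, with 9.39 ± 0.04 in Rapa and 8.39 ± 0.51 in vehicle rats after 7 doses (SD, n = 4 each) and 8.23 ± 0.54 in Rapa and 9.43 ± 0.26 in vehicle rats after 28 doses (n = 6 and 5). The difference between the changes was -2.20 ± 0.46 SE (limma's adjusted p = 0.00503). Lce3b, the protease Adam9 and the channel subunit Cacng5 had -1.61, -1.38 and -1.35. The count rested on single rats: it was 313 without vehicle replicate 1 of 7 doses and 73 without vehicle replicate 2.

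Between 28 and 14 doses 108 genes differed (1.01%), 35 with a higher change at 28 doses (0.328%) and 73 with a lower one (0.685%). Alas2 and Hbb again had higher changes at 28 doses, by 2.06 ± 0.42 SE (limma's adjusted p = 0.00260) and 1.52 ± 0.39 SE (limma's adjusted p = 0.0273); both tests use the same rats of 28 doses. Ccdc127 averaged 6.76 ± 0.42 in Rapa and 7.48 ± 0.25 in vehicle rats after 14 doses (SD, n = 4 each), and its changes differed by 2.12 ± 0.29 SE (limma's adjusted p = 6.00e-07). The transcription factor Klf13 had 1.29. The ubiquitin ligase Rnf41 had -1.87 ± 0.34 SE, the stress cytokine Gdf15 -1.60, the metallothionein Mt1 -1.59 and the chromatin protein Setd5 -1.57. Without Rapa replicate 2 of 14 doses 49 genes differed.

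**Figure D5:**
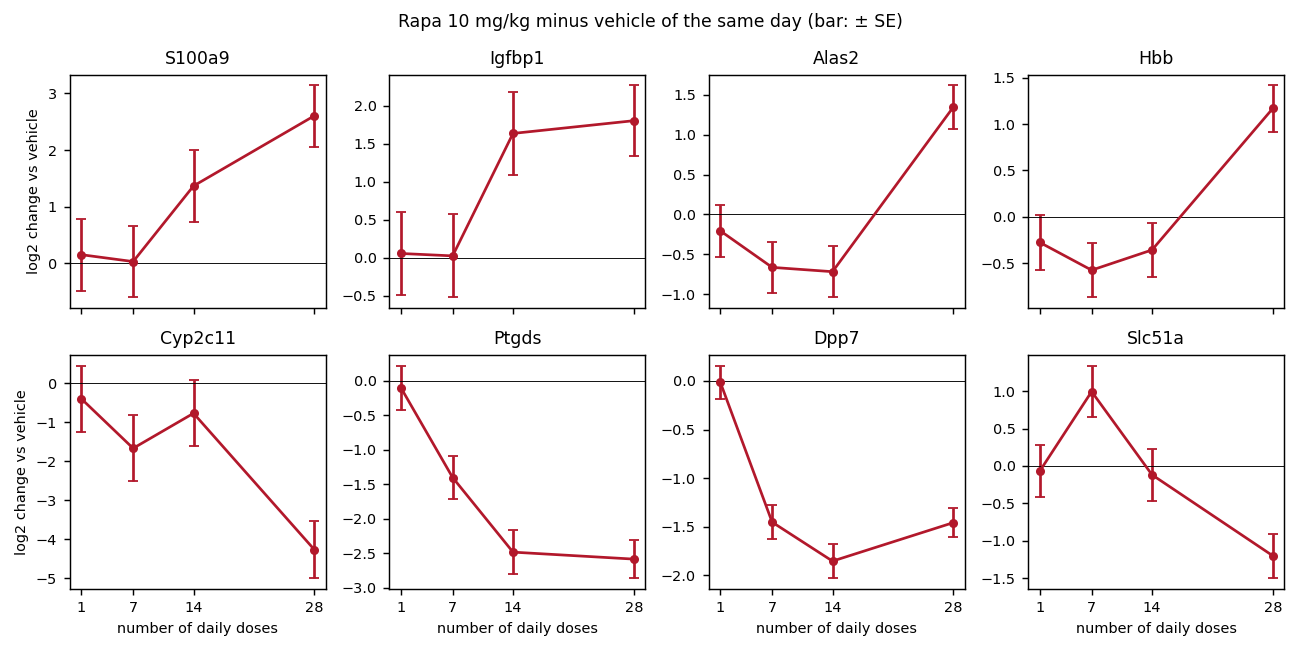
Each panel is 1 gene; the horizontal axis is the number of daily doses (1, 7, 14 or 28, different rats at each) and the vertical axis the log2 change of Rapa 10 mg/kg minus vehicle of the same day, with bars of 1 SE. Ptgds and Dpp7 were lower from 7 doses on, Alas2 and Hbb were above 0 at 28 doses alone, and the Slc51a change was positive at 7 and negative at 28 doses.

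For the leading genes the changes after 1, 7, 14 and 28 doses can be given in order, each against its own vehicle rats. Ptgds had -0.10, -1.40, -2.48 and -2.58, Dpp7 -0.02, -1.45, -1.85 and -1.46, and Apcs -0.18, -1.21, -1.18 and -1.74. Igfbp1 had 0.06, 0.02, 1.64 and 1.81, and S100a9 0.15, 0.03, 1.37 and 2.60. For S100a9 the difference between 28 and 7 doses was 2.57 (limma's adjusted p = 0.0825) and did not pass the test, nor did that of Cyp2c11, with changes of -0.39, -1.66, -0.76 and -4.26. The genes called were 301 after 1 dose (2.82%), 778 after 7 (7.3%) and 1118 after 14 (10.5%), with 4 rats a group against 6 and 5 at 28 doses. The Gapdh 3′ over 5′ log2 ratio was 0.62 to 0.95 in Rapa and 0.25 to 0.40 in vehicle arrays after 1 dose. After 7 doses it was 0.35 to 0.49 in Rapa and 0.60 to 0.89 in vehicle arrays. The groups thus did not overlap in this measure of RNA quality. Its part in the counts after 1 and 7 doses was not tested. Ribosomal proteins had 2, 9, 22 and 33 of 39 genes higher (1.7%, 3%, 5.19% and 7.58% of all genes), and fatty acid oxidation 5, 11, 7 and 14 of 27 lower (1.13%, 4.3%, 5.3% and 8.16% of all genes). By limma's test of the difference itself, 2 ribosomal genes differed between 28 and 7 doses.

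FK506 at 6 mg/kg and CsA at 25 mg/kg were measured against the same vehicle rats of 28 doses. Because doses and numbers of rats differ between the drugs, the counts are only set beside those of Rapa. The hybridization controls, spiked into every sample, lay at 7.18 to 10.21 in the FK506 arrays and 10.32 to 10.52 in the vehicle arrays, and their part in the FK506 counts was not tested. FK506 had 931 genes higher (8.73%) and 777 lower (7.29%), and CsA 1114 higher (10.4%) and 1139 lower (10.7%). CsA replicate 3 stood apart, since all 5273 zero intensities of the table were in its array, and without it CsA had 853 genes higher and 829 lower. Of 25 tubular injury genes 6 were higher and 2 lower with Rapa, 19 and 1 with FK506 and 19 and 1 with CsA. Ribosomal proteins had 33 of 39 higher with Rapa, 32 with FK506 and 35 with CsA. Fatty acid oxidation had 1 of 27 higher and 14 lower with Rapa, 4 and 3 with FK506 and 1 and 4 with CsA, and cell cycle genes had 3 of 33 higher and 9 lower with Rapa, and 2 and 1 with each of FK506 and CsA. In the distal convoluted tubule list 2 of 17 were higher and 1 lower with Rapa, 1 and 9 with FK506 and 0 and 10 with CsA. Without that CsA array, 18 tubular injury and 33 ribosomal genes were higher with CsA, and 3 genes of fatty acid oxidation and 10 of the distal convoluted tubule were lower, and 1 cell cycle gene was higher and 0 lower.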

How the data were processed

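Kidney RNA of each rat was hybridised to 1 Affymetrix Rat 230 2.0 array, per the labels, after biotin labelling by a one-cycle protocol. The authors deposited intensities on a linear scale, and how probes were summarised and arrays scaled is not given in the sources used here. From these, log2(intensity + 16) was computed and the 120 arrays were quantile normalized. Of 31099 probe sets, 57 were controls, 20826 carried 1 gene symbol, 436 several and 9780 none. The brightest probe set of each of 14217 genes was kept, and the dimmest 25% of genes (3555) were left out, with the lowest kept at 5.75. Other probe sets are given for some named genes only, and those of further named genes were not all called. Groups came from the labels. Limma 3.58.1 (R 4.3.3) estimated 1 mean for each of the 28 groups of the series together (92 residual degrees of freedom, no intensity trend), two-sided, with Benjamini-Hochberg adjustment over 10662 genes. SE is that of the model and SD that of the rats. The number of rats limits the precision. Detection was tested on simulated data: in the comparison of Rapa 10 mg/kg with vehicle, with 200 of 10662 genes changed, 56% of changes of 0.5 and 96% of changes of 1 (log2) were recovered, and 7 of 180 calls were false. In the data 15.7% of genes were called, a larger share than was simulated, and no change under 0.5 was simulated. These rates therefore do not give the detection of the smaller changes in the lists.

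The genes named were the 15 largest rises and 15 largest falls among called genes whose Rapa rats were all above, or all below, the mean of vehicle rats, up to 4 each way in the other comparisons (without that condition for the differences between days), up to 6 called genes per list, and a set of kidney and mTOR genes, some of which are not reported here. The members, lists and rules were chosen with earlier results of these data known. A list is described by its counts and its median, beside those of all genes. As alternatives, quantile normalization was left out, the offset was set to 1, the filter on dim genes was dropped or made stricter, and fits were made with all probe sets apart, an intensity trend, the groups compared alone, technical covariates, array weights and leaving out each rat. Sequences at gene starts came from RefSeq (GRCr8).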

Additional observations from a re-analysis of the deposited data

Results flagged for a closer look

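In 7 of 118 sets of rats (1 gene in 1 group) a single rat lay far from the others by Dixon's test, and chance passes its limit in about 1 in 20 sets. Among Rapa rats, replicate 4 had Stra6 at 6.22 (the others 7.29 to 7.67), Clu at 10.16 (10.67 to 10.89) and Slc12a3 at 9.40 (9.69 to 9.83), and replicate 6 had Lcn2 at 9.32 (7.02 to 7.58). Among vehicle rats, replicate 2 had Saa3 at 6.96 (5.89 to 6.15), Spp1 at 10.78 (11.72 to 12.05) and Kl at 5.93 (6.58 to 6.72).

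The change at 28 doses differed from that at 7 doses, by limma's test of the difference itself, for 186 genes, of which 8 are named. It was higher at 28 doses for Cdk5rap3 (2.25, adjusted p = 0.0152), Alas2 (2.00, adjusted p = 0.00589), Hbb (1.74, adjusted p = 0.00760) and Fblim1 (1.45, adjusted p = 0.0401). It was lower for Slc51a (-2.20, adjusted p = 0.00503), Lce3b (-1.61, adjusted p = 0.00760), Adam9 (-1.38, adjusted p = 0.0330) and Cacng5 (-1.35, adjusted p = 0.0287).

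Against 14 doses, limma's difference was positive for Ccdc127 (2.12, adjusted p = 6.00e-07), Alas2 (2.06, adjusted p = 0.00260), Hbb (1.52, adjusted p = 0.0273) and Klf13 (1.29, adjusted p = 0.00239). It was negative for Rnf41 (-1.87, adjusted p = 0.000303), Gdf15 (-1.60, adjusted p = 0.0273), Mt1 (-1.59, adjusted p = 0.0410) and Setd5 (-1.57, adjusted p = 0.00100). The 8 tests of each day share the rats of 28 doses, and the 8 were chosen by size among the called genes.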

How the results depend on the processing

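The count of 1678 genes for Rapa 10 mg/kg against vehicle lay between 1144 (these 11 rats alone) and 2138 (all probe sets apart) under 23 alternatives, and between 1329 and 1646 when 1 rat was left out; without the 2 rats with much Alb, an alternative chosen after seeing the data, it was 1268. Of 177 named called genes, 114 kept call and direction under all 23 alternatives, 63 lost the call under at least 1 and 0 reversed; the cause was not tested. The call was lost under 14 of the 22 or 23 alternatives for Mki67, 13 for Fkbp1b, 12 for Hsd17b7, 11 for Igf1r, Scd2, Slc7a5, Abcb1a, Cd14, Anpep, Mylk and Gypc, 10 for Gdf15, Igfbp7 and Slc7a12, and 8 for Fkbp8, Acot1, Slc2a1 and Lrg1. With these 11 rats alone, ribosomal proteins had 21 higher, translation factors 7 higher, fatty acid oxidation 9 lower, cell cycle genes 5 lower, lymphocyte genes 2 lower, and lysosome and autophagy genes 5 lower and 3 higher. The 13 genes that differed between 10 and 1 mg/kg became 1 without quantile normalization, 1 without the filter on dim genes, 0 with all probe sets apart, 1 in the groups alone, 0 with hybridization controls as covariate and 3 with array weights, by limma, where 887, 1050, 1589, 639, 681 and 784 had an unadjusted p under 0.05. Without 1 rat it was 0 to 32: 0 without Rapa 10 mg/kg replicate 5 or 6 or Rapa 1 mg/kg replicate 2, 3 or 6 (758 to 940 unadjusted), 1 and 4 without Rapa 10 mg/kg replicates 3 and 4, 5 without Rapa 1 mg/kg replicate 4, 21 without Rapa 10 mg/kg replicate 1 or 2, and 32 and 24 without Rapa 1 mg/kg replicates 1 and 5. The 186 genes between 28 and 7 doses became 115 without the filter, 286 with all probe sets apart and 8 in the groups alone, and 73 to 313 without 1 rat: 103 without Rapa replicate 3, 104 and 107 without vehicle replicates 1 and 2 of 28 doses, and 97 without Rapa replicate 2 of 7 doses. The 108 genes between 28 and 14 doses became 298 with all probe sets apart and 164 with array weights, and 49 to 124 without 1 rat: 65 without Rapa replicate 6 and 70 without vehicle replicate 2 of 28 doses, 62 without Rapa replicate 3 and 69 without vehicle replicate 2 of 14 doses. No paired analysis was possible because replicate numbers only name rats in accession order and each rat was used once. Genes near a level of 4 are limited by signal over background.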
